A study of Mus musculus with 24 samples.

Results

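The 35 genes described here make cholesterol, control its making, or move, oxidise and store it. They were listed by symbol and function, with no threshold on a measured value but with earlier results of these data known, and all 35 were among the 18647 genes of the count table and among the 18153 genes that had enough counts to be tested. They were read in polyadenylated RNA from the CA1 region of the hippocampus of C57Bl/6N mice at least 60 days old, in 24 libraries. SE mice received scopolamine methyl nitrate at 1 mg/kg and then 335 mg/kg pilocarpine, developed status epilepticus (SE), and were sampled at 6, 12, 24, 36 or 72 h. Control (Ctr) mice received the same scopolamine and saline in place of pilocarpine and were sampled at 12, 36 or 72 h. Both groups were given diazepam at 4 mg/kg, 40 min after SE onset in the SE mice, so the drug was shared and pilocarpine with its seizures was not. Each of the 8 groups held 3 libraries. The labels do not say whether each library came from a separate animal, so the tests measure the spread between libraries, less what 1 fitted factor for unwanted variation takes up.

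Cholesterol is built from acetyl-CoA. The mevalonate pathway yields isoprenoid units that are joined to squalene, and a chain of enzymes in the endoplasmic reticulum then turns squalene into cholesterol. In the brain cholesterol is made locally because lipoproteins do not cross the blood-brain barrier, and myelin and glial cells account for much of its use and supply. When membrane sterol is low, SCAP escorts SREBP proteins out of the endoplasmic reticulum, and the part cut free switches on most genes of synthesis. INSIG proteins hold SCAP back when sterol is plentiful. Oxidised sterols activate the liver X receptors (LXR), which switch on the exporters ABCA1 and ABCG1 and the Srebf1 gene.

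SREBP acts at promoters together with NF-Y, which binds CCAAT, so the promoters of some of the genes that follow are shown with the letters CCAAT, or ATTGG on the other strand, in capitals. The windows were read from the GRCm39 genome upstream of the start of the canonical GENCODE transcript and hold no base of an annotated exon. Other transcripts may start elsewhere, and the annotated Pmvk gene begins before its window, at chr3:89361758. Hmgcs1, Sqle, Msmo1, Hsd17b7 and Insig1 were higher at 6 h or 12 h after SE and hold the letters. Pmvk, which had the largest early Log2FC of the synthesis enzymes, does not hold them in its 250 bases and so has no capitals, nor does Cyp51, which also rose and is not printed. Cyp46a1, which removes cholesterol and was not called higher at any time, is also given and holds ATTGG too. The letters were also in the windows of Mvk, Ggps1, Fdft1, Lss and Nsdhl, called in no comparison with Ctr, and of Tm7sf2, called lower. Genes with and without an early rise thus held them, and no link to the rise was tested.
Hmgcs1, chr13:120151785-120151914, plus strand: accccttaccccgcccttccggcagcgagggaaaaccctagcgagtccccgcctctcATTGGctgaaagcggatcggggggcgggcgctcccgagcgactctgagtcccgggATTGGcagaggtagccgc
Sqle, chr15:59186632-59186868, plus strand: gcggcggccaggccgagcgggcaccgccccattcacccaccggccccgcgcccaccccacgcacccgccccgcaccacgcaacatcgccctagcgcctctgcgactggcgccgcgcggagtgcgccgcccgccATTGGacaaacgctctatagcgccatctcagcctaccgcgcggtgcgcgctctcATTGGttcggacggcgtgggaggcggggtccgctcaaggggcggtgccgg
Msmo1, chr8:65186831-65187076, minus strand: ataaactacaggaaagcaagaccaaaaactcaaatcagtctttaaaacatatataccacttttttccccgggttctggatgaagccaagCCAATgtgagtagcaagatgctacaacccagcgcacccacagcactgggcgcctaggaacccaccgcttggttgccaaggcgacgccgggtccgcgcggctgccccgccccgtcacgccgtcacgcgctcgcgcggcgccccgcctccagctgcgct
Hsd17b7, chr1:169796814-169796914, minus strand: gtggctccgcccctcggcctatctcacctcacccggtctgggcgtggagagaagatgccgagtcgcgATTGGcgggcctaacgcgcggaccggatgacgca
Insig1, chr5:28276124-28276314, plus strand: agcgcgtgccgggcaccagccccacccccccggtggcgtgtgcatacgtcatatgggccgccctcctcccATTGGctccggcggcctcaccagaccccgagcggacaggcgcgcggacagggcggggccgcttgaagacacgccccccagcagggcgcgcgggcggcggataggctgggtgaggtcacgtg
Pmvk, chr3:89366175-89366424, plus strand: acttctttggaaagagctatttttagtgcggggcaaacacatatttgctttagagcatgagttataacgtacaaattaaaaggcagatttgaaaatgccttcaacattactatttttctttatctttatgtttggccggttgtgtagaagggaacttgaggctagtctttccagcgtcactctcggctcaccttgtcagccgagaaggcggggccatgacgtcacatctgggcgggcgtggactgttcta
Cyp46a1, chr12:108300250-108300492, plus strand: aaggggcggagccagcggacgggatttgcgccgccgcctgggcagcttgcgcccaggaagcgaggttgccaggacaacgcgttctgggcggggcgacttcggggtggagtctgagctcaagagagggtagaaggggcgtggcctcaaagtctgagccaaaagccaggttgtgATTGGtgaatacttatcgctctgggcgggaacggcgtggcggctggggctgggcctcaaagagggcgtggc

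Among the 21770 protein-coding genes whose window of 250 bases before the start site could be read, 36.5% held CCAAT on either strand. Of the 20 synthesis enzymes 14 did, and of the 15 other genes of the set 8 did. The letters TCACNCCAC, one spelling of the sterol regulatory element that SREBP binds, were present in 1.12% of all windows and in 1 of the 35, that of Hmgcs1, 232 bases before its start and outside the stretch printed here. GGGCGG, bound by Sp1, was in 36.3% of all windows and in 20 of the 35. A match is a string of letters and not a bound site, and no test was made on these counts.

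Library totals ran from 2663936 to 30133731 counts, and the 3 Ctr 72 h libraries, at 2663936 to 11680209, were among the shallower ones. Markers of CA1 pyramidal cells were present in every library. A list of 9 sensory ganglion and peripheral nerve markers summed to more than 300 CPM (counts scaled to a common library size by TMM) in 6 libraries, SE 6 h replicate 3, SE 12 h replicate 1, SE 36 h replicate 3, SE 72 h replicates 1 and 2, and Ctr 72 h replicate 2, with 1650 CPM in the last and at most 68.2 CPM in the remaining libraries. Counts of genes that changed are therefore also given without these 6 libraries, which leaves 1 library in SE 72 h and 2 each in SE 6 h, SE 12 h, SE 36 h and Ctr 72 h; the lone SE 72 h library is then assumed to vary like the other groups, and a call lost there may reflect the smaller number. The sample labels also carry numbers that fall into 3 ranges, of unstated meaning, and all Ctr 72 h libraries are in a range that holds no SE 72 h library, so counts are given with the range as a factor too. The summed level of 10 microglial markers was 397 to 498 CPM in the Ctr libraries and 1892 to 2711 CPM at SE 72 h, where all 10 were called higher. That of 10 astrocyte markers was 5011 to 6102 CPM and 13064 to 14564 CPM, with 4 of 10 called higher, and that of 10 oligodendrocyte markers spanned 2685 to 4825 CPM in Ctr and 1558 to 7460 CPM in SE libraries. The astrocyte sum leaned on Gfap, at 217 to 309 CPM in Ctr and 1083 to 8779 CPM in SE libraries. Slc1a2, another of that list, reached at most 3155 CPM in Ctr and 2973 CPM in SE libraries. No gene of these 3 lists was at 0 in any library. The 8 neuronal markers summed to 7908 to 10801 CPM in Ctr and 5489 to 8740 CPM in SE libraries. Of 5 CA1 pyramidal markers 3 were called lower at 36 h and 2 at 72 h, and of 5 dentate granule markers 3 were called higher at 72 h. These sums differed between single libraries. In SE 72 h replicates 1, 2 and 3 the dentate sum was 329, 54.3 and 71.5 CPM and the CA1 sum 302, 626 and 667 CPM. The CA1 sum was 1355 to 1440 CPM in Ctr 36 h, 722 to 1153 CPM in Ctr 12 h and 775 to 1016 CPM in Ctr 72 h. Markers of CA3 pyramidal cells summed to 234 CPM in Ctr 12 h replicate 3 and to at most 81.8 CPM in SE libraries. In bulk tissue, fewer cells of a type and less RNA per cell cannot be told apart, and how far these shifts enter the values below was not tested.

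A gene was called higher or lower when edgeR's quasi-likelihood test gave a Benjamini-Hochberg adjusted p of at most 0.05 over all genes tested and the log2 fold change (Log2FC) was at least 0.66 in size. SE 12, 36 and 72 h were each set against the Ctr group of their own time. SE 6 h and SE 24 h have no Ctr group of their own time and were set against the mean of the 3 Ctr groups, so these 2 comparisons share all their Ctr libraries with each other and with the rest. If injections shared an hour, which is not stated, SE 6 h falls at a clock time of no Ctr group. SE 24 h then falls at that of Ctr 72 h only. The part of time of day in these 2 comparisons was not tested.

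Synthesis enzymes were called higher mostly early after SE. At 6 h, 9 of the 20 were called higher and none lower, with a median Log2FC of 0.53 over the 20 against 0.06 over all genes. At 12 h, 7 were called higher and none lower, with a median of 0.47 against 0.01. By 24 h 2 were called higher and 1 lower (median 0.32 against 0.04), at 36 h 1 was called higher and none lower (0.22 against 0.00), and at 72 h 1 was called higher and 2 lower (-0.21 against 0.10). Without the 6 libraries with ganglion markers, 7 were called higher and 1 lower at 6 h, 9 and 0 at 12 h, 2 and 1 at 24 h, 0 and 0 at 36 h, and 0 and 0 at 72 h, where 1 SE library was left. With the label number range as a factor the counts were 8 and 1 at 6 h, 3 and 1 at 12 h, where Pmvk, Idi1, Hsd17b7 and Sc5d lost the call and Sqle, Cyp51 and Msmo1 kept it, 2 and 2 at 24 h, 0 and 0 at 36 h, and 0 and 2 at 72 h. Over all 35 genes, 10 were called higher and none lower at 6 h (22% of all genes tested were called), 9 higher and 1 lower at 12 h (25.2%), 5 and 1 at 24 h (24.1%), 4 and 1 at 36 h (21.6%), and 7 and 3 at 72 h (19.4%). Of all genes tested, the shares called higher at the 5 times, from 6 h to 72 h, were 15.8%, 13.9%, 14.9%, 12.7% and 15.2%, and the shares called lower 6.21%, 11.4%, 9.21%, 8.91% and 4.2%, so the share of the 20 enzymes called higher was above the background at 6 and 12 h and under it from 24 h on. Of the 10 oligodendrocyte markers 5 were called higher at 6 h, none at 12 h and 4 at 24 h, with summed levels of 6096 to 6471, 1558 to 4398 and 3095 to 7085 CPM, and their part in the early values was not tested. Libraries of SE and Ctr were also compared without a model. All 3 SE libraries lay above all Ctr libraries for 16 of the 35 genes and below them for 4 at 12 h, where 47.7% of all genes lay apart (24.5% above, 23.2% below). The counts were 14 and 3 at 36 h (51.9%, 25.8% and 26.2%) and 10 and 8 at 72 h (32.8%, 19.4% and 13.4%). Against all 9 Ctr libraries they were 7 and 2 at 6 h (22.2%, 12.9% and 9.27%) and 8 and 2 at 24 h (23.6%, 13.6% and 10%).

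**Figure D1:**
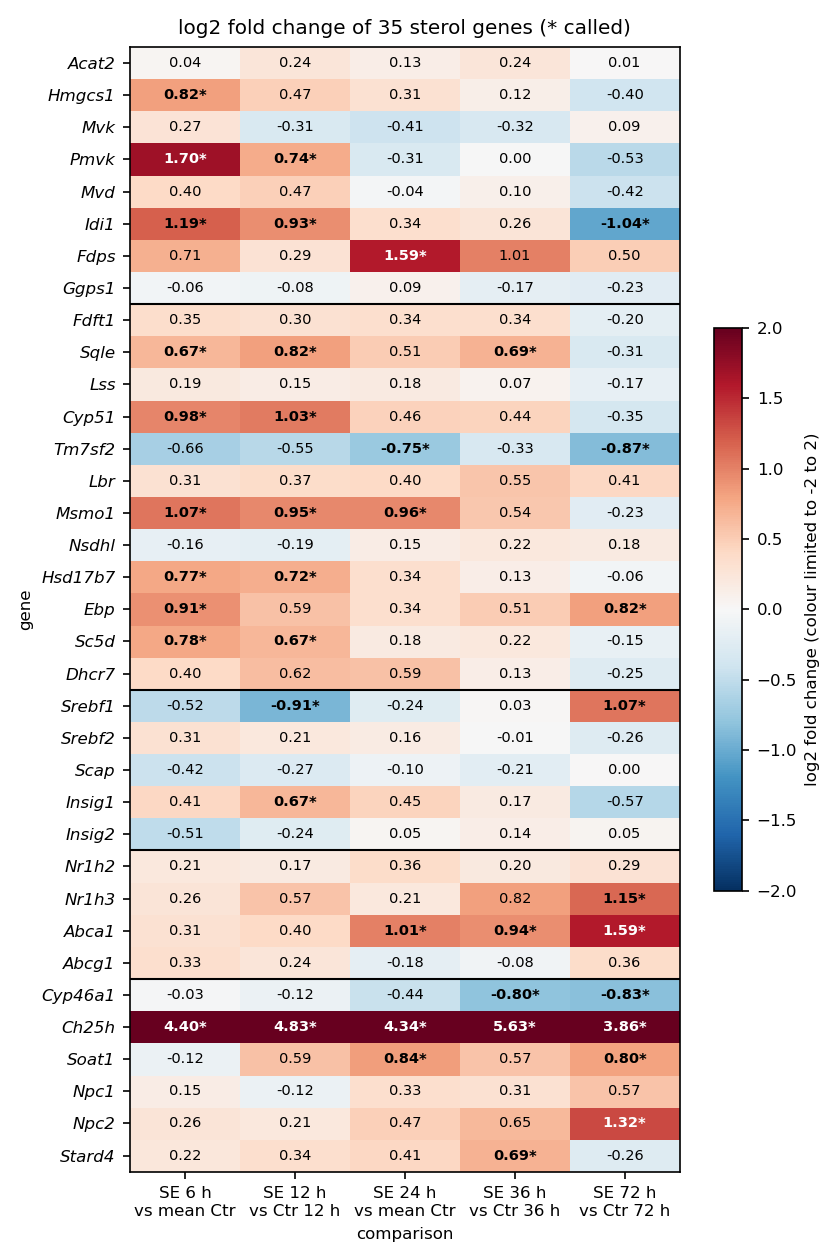
Log2FC of the 35 genes (rows, grouped by role with lines between groups: mevalonate pathway, squalene to cholesterol, SREBP regulation, LXR and efflux, and oxidation, storage and transport) in the 5 comparisons of SE with Ctr libraries (columns). Red is higher and blue lower after SE, the colour ends at 2, and values with a star were called; the red block of synthesis enzymes at 6 and 12 h gives way to pale and blue cells at 72 h, while Ch25h is starred throughout.

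Summed over the 20 enzymes, the level was 857 to 912 CPM in Ctr 12 h, 851 to 932 CPM in Ctr 36 h and 1026, 1408 and 1093 CPM in the 3 Ctr 72 h libraries. After SE it was 1333 to 1766 CPM at 6 h, 1181 to 1327 CPM at 12 h, 987 to 1585 CPM at 24 h, 885 to 1262 CPM at 36 h and 948 to 983 CPM at 72 h. Every Ctr 72 h library lay above the other 6 Ctr libraries and above the 3 SE 72 h libraries, and the SE 72 h libraries themselves lay above the Ctr 12 h and Ctr 36 h libraries. The sign of the 72 h values thus turns on the control: with the mean of Ctr 12 h and Ctr 36 h in place of Ctr 72 h, an alternative chosen after these levels were seen, the median Log2FC of the 20 enzymes at 72 h was 0.18 in place of -0.21, with 1 called higher and none lower. By elapsed time, 12 and 36 h fall at the same clock time and 72 h does not, if injections shared an hour, which is not stated. The swapped control may therefore not match SE 72 h in time of day, whose part was not tested.

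**Figure D2:**
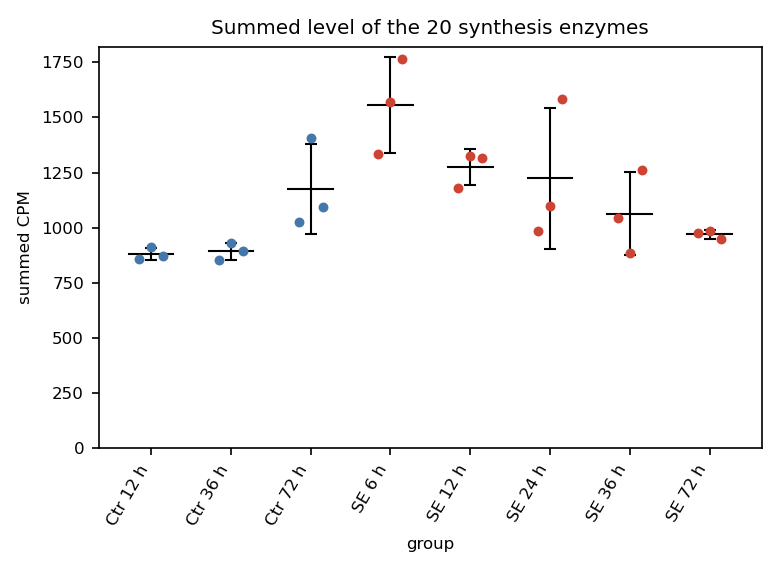
Summed CPM of the 20 synthesis enzymes (vertical axis) in each library by group (horizontal axis), Ctr in blue and SE in red; points are libraries, bars the mean and SD of 3. The SE 6 h libraries sit at 1333 to 1766 CPM, Ctr 72 h lies at 1026 to 1408 CPM above the other Ctr groups, and SE 72 h at 948 to 983 CPM.

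In the mevalonate pathway, Hmgcs1 and the kinase and isomerase that follow it carried the early rise. Hmgcs1, the cytosolic synthase that forms HMG-CoA, was by length the most abundant of the 20 enzymes in Ctr libraries, with a median of 34.9 CPM per kb of exon. The level was 164, 176 and 190 CPM in Ctr 12 h, 167, 183 and 184 CPM in Ctr 36 h and 211, 326 and 226 CPM in Ctr 72 h, against 300, 355 and 396 CPM at SE 6 h. Only Ctr 72 h replicate 2, the library with the most ganglion marker signal, reached into the SE 6 h range. The Log2FC at 6 h was 0.82 (standard error 0.16, adjusted p = 0.000534), and it was 0.47 at 12 h, where the 3 SE libraries (223, 276 and 232 CPM) lay above the 3 Ctr libraries but the adjusted p was 0.0819.

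Pmvk, the phosphomevalonate kinase, showed the largest early Log2FC of the 20 enzymes. It stood at 25 to 59.2 CPM in the 9 Ctr libraries and at 91.2, 128 and 118 CPM at SE 6 h, without overlap. The Log2FC was 1.70 (standard error 0.15, adjusted p = 3.95e-08). By 12 h it was 36.3, 52.6 and 61.1 CPM, still above the 26.5, 35.9 and 28.0 CPM of Ctr 12 h (Log2FC 0.74, adjusted p = 0.00562), though not called without Ctr 12 h replicate 1 or SE 12 h replicate 3, nor with the label number range as a factor (0.53). Between SE 6 h and SE 12 h, where a Log2FC of at least 1 was asked for, Pmvk fell by 1.17 on the log2 scale (standard error 0.19, adjusted p = 0.00352) and was the only one of the 35 called, beside 1.34% of all genes (0.446% higher, 0.898% lower); without SE 12 h replicate 1 it was no longer called. At SE 24, 36 and 72 h it ranged from 25.3 to 35.9 CPM.

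Idi1, which isomerises isopentenyl pyrophosphate, was measured at 6.43 to 7.41 CPM in Ctr 12 h and Ctr 36 h. It reached 14.1, 19.4 and 23.4 CPM at SE 6 h and 11, 12.1 and 14.7 CPM at SE 12 h, above all 6 of those controls, while Ctr 72 h replicate 2 reached 23.9 CPM. The Log2FC was 1.19 at 6 h (adjusted p = 0.00156) and 0.93 at 12 h (adjusted p = 0.0425), and the 12 h call was lost when any of the 3 Ctr 12 h libraries, SE 12 h replicate 2 or SE 12 h replicate 3 was left out, without the RUVr factor of the fit, and with the label number range as a factor (0.48). At 72 h the Log2FC was -1.04 (adjusted p = 0.0407), but Ctr 72 h read 9.37, 23.9 and 7.87 CPM against 5.44, 3.24 and 8.48 CPM in SE 72 h, with Ctr 12 h and Ctr 36 h as controls it was -0.22, without the 6 libraries with ganglion markers, with 1 SE 72 h library left, it was -0.05, and it was not called without Ctr 72 h replicate 2 or SE 72 h replicates 1 or 2. Of the 31-base words in Idi1 transcripts, 26.5% also occur in transcripts of other genes, the pseudogenes Idi1-ps1 and Idi1-ps2 among them. Reads from those stretches may not be unique to Idi1 and may be missing from its count.

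Fdps, the farnesyl pyrophosphate synthase, was listed at only 0.75 to 2.14 CPM in Ctr libraries and at 2.76, 3.96 and 4.90 CPM at SE 24 h. The Log2FC there was 1.59 (standard error 0.31, adjusted p = 0.000418), with no overlap with the 9 Ctr libraries. Its transcripts share 14.6% of their 31-base words with 7 other annotated genes and its lowest library held 2 counts, so the level is uncertain. Acat2, which makes acetoacetyl-CoA, Mvk, the mevalonate kinase, Mvd, the diphosphomevalonate decarboxylase, and Ggps1, which makes geranylgeranyl pyrophosphate, were called in none of the 5 comparisons, with Log2FC between -0.42 and 0.47.

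From squalene on, 6 of 12 enzymes were called higher at 6 h and 5 at 12 h (15.8% and 13.9% of all genes). Sqle, the squalene epoxidase and a control point of the pathway, read 63.4, 76.7 and 68.8 CPM in Ctr 12 h against 111, 137 and 120 CPM in SE 12 h. The groups did not overlap, and the Log2FC was 0.82 (standard error 0.18, adjusted p = 0.0016). It was still 0.69 at 36 h (61.2, 66.5 and 62.2 CPM against 105, 85.6 and 116 CPM, adjusted p = 0.00708), though not called without SE 36 h replicate 3, without the 6 libraries with ganglion markers or with the label number range as a factor (0.61). The 6 h value, 0.67, lay at the threshold and was not called under 5 of 11 alternatives, nor without SE 6 h replicate 3, Ctr 12 h replicate 1 or Ctr 72 h replicates 1 or 3.

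Cyp51, the lanosterol demethylase, rose at 6 and 12 h. It stood at 75.9, 70.3 and 54.4 CPM in Ctr 12 h and 120, 118 and 173 CPM in SE 12 h, with SE 6 h at 113, 161 and 195 CPM above every Ctr library (54.4 to 109 CPM). The Log2FC was 0.98 at 6 h (adjusted p = 0.000442) and 1.03 at 12 h (adjusted p = 0.0027), and both calls held in every alternative and with each library left out. Exons of Cyp51 overlap those of Akap9 on the other strand and the library kit did not keep strand. Reads there cannot be told apart and may be missing from the Cyp51 count.

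Msmo1, the sterol C4-methyl oxidase, was called at 6, 12 and 24 h. The 3 Ctr 12 h libraries held 73.3, 76.2 and 72.7 CPM, and the SE libraries 155, 187 and 210 CPM at 6 h, 127, 129 and 173 CPM at 12 h and 139, 153 and 221 CPM at 24 h. The Log2FC was 1.07, 0.95 and 0.96 in turn (adjusted p = 2.69e-06, 0.000193 and 7.03e-06), and these 3 calls held in every alternative; at 24 h the only overlap with Ctr was through Ctr 72 h replicate 2, at 142 CPM. At 36 h all 3 SE libraries (117, 103 and 132 CPM) were above the 3 Ctr libraries (74.5, 92.1 and 75.8 CPM) with a Log2FC of 0.54, below the fold asked for, and at 72 h the groups overlapped (Log2FC -0.23).

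Other late steps were also higher. Hsd17b7, the 3-ketosteroid reductase of the pathway, was called at 6 h (Log2FC 0.77) and 12 h (0.72), and so was Sc5d, the sterol C5-desaturase (0.78 and 0.67). Neither was called at 6 h without SE 6 h replicate 3 or at 12 h without SE 12 h replicate 2 or with the label number range as a factor (0.57 for Hsd17b7 and 0.56 for Sc5d), and Sc5d was not called at 12 h without Ctr 12 h replicate 1 or at 6 h without the 6 libraries with ganglion markers. Ebp, the sterol isomerase, was called at 6 h, with 22.3, 25.2 and 21.2 CPM against 9.38 to 15 CPM in all Ctr libraries (Log2FC 0.91, adjusted p = 3.11e-05), and was the one synthesis enzyme called higher at 72 h (20.9, 22.5 and 18.4 CPM against 11.5, 9.38 and 15 CPM, Log2FC 0.82, adjusted p = 0.00221). The 72 h call of Ebp was lost with the label number range as a factor (Log2FC 0.57), and without the 6 libraries with ganglion markers, when SE 72 h held only the library at 18.4 CPM, the Log2FC was 0.52. Dhcr7, which reduces 7-dehydrocholesterol, lay above its controls in all 3 SE 12 h libraries at a Log2FC of 0.62 (adjusted p = 0.00153), just under the fold asked for.

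Tm7sf2, one of the sterol C14-reductases, went the other way. SE 24 h read 12.4, 14.5 and 12.7 CPM, below all 9 Ctr libraries (15.1 to 45.9 CPM), with a Log2FC of -0.75 (adjusted p = 0.001). At 72 h it was 18.7, 18.5 and 15.7 CPM against 26.7, 45.9 and 27.7 CPM (Log2FC -0.87, adjusted p = 0.00217), but not called without Ctr 72 h replicate 2. With Ctr 12 h and Ctr 36 h as controls it was called at neither time, at -0.48 and -0.07. Its gene overlaps Vps51 on the same strand. Lbr, the lamin B receptor and the other C14-reductase, had Log2FC of 0.31 to 0.55 in the 5 comparisons, with SE libraries above their controls at 12, 24, 36 and 72 h and no call. Fdft1, the squalene synthase, Lss, which closes the sterol rings, and Nsdhl, a C4-decarboxylating dehydrogenase, were not called, with Log2FC between -0.20 and 0.35.

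**Figure D3:**
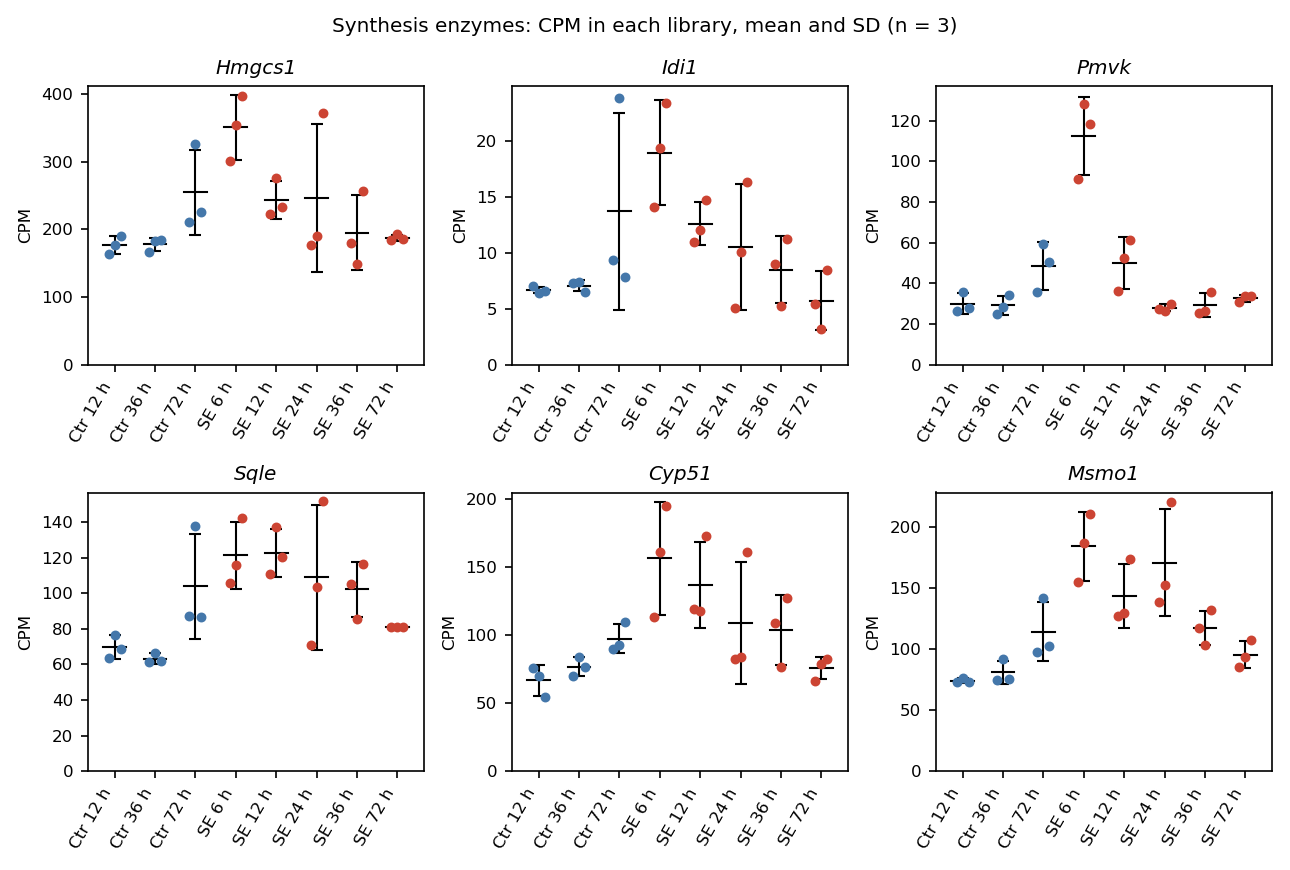
CPM (vertical axes, from 0) of 6 synthesis enzymes in each library by group, Ctr in blue and SE in red; points are libraries, bars the mean and SD of 3. SE 6 h stands above Ctr 12 h and Ctr 36 h in all 6 panels, and Ctr 72 h replicate 2 (the middle point of its group) is high for Hmgcs1, Idi1, Pmvk, Sqle and Msmo1.

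Among the regulators, Srebf1 fell and then rose. This gene encodes SREBP1, which acts chiefly on fatty acid genes. It read 63.8, 77.6 and 58.8 CPM in Ctr 12 h and 34.2, 29.7 and 42.9 CPM in SE 12 h. All SE libraries were lower, with a Log2FC of -0.91 (standard error 0.20, adjusted p = 0.00137). At 6 h all 3 SE libraries (45.5, 39.2 and 40.5 CPM) also lay below the 9 Ctr libraries (46.1 to 77.6 CPM), with a Log2FC of -0.52. At 72 h the order was reversed, with 99.6, 109 and 127 CPM in SE against 58.8, 52.7 and 46.1 CPM in Ctr and a Log2FC of 1.07 (adjusted p = 0.000546). With the label number range as a factor it was 0.90 (adjusted p = 0.0511) and not called. The difference between the 72 h and 12 h effects was 1.98 (standard error 0.29, adjusted p = 0.000134) and held in every alternative.

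Srebf2, which encodes SREBP2, the main activator of cholesterol synthesis, was called in no comparison. Its SE 6 h libraries (276, 280 and 298 CPM) lay above all Ctr libraries (198 to 266 CPM) with a Log2FC of 0.31 (adjusted p = 0.0384), and its other Log2FC ran from -0.26 to 0.21. Insig1, an SREBP target as well as its brake, read 57.2, 57.0 and 50.5 CPM in Ctr 12 h and 72.8, 104 and 85.0 CPM in SE 12 h (Log2FC 0.67, adjusted p = 0.00334); the value lay at the fold asked for and was not called without SE 12 h replicate 2 or Ctr 12 h replicate 3, nor with the label number range as a factor (0.60). At 72 h its SE libraries (49.0, 56.4 and 48.7 CPM) lay below the Ctr libraries (79.5, 60.5 and 90.4 CPM), with a Log2FC of -0.57 (adjusted p = 0.0162). Insig2 and Scap, the escort of SREBP, were not called. Scap was below all 9 Ctr libraries at 6 h (70.7 to 73.7 against 79.5 to 115 CPM, Log2FC -0.42), and Insig2 had a Log2FC of -0.51 there.

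The exporter Abca1 rose late. Abca1 loads cholesterol onto apolipoproteins. It read 43.2, 41.9 and 42.8 CPM in Ctr 36 h against 75.4, 83.2 and 86.2 CPM in SE 36 h, and 39.2, 69.4 and 45.0 CPM in Ctr 72 h against 119, 135 and 188 CPM in SE 72 h. Neither pair of groups overlapped, and the SE 24 h libraries (97.9, 73.6 and 88.9 CPM) were above all Ctr libraries. At 24, 36 and 72 h the Log2FC was 1.01, 0.94 and 1.59 (adjusted p = 0.000193, 0.00458 and 6.36e-05), and all 3 calls held in every alternative. At 6 and 12 h it was 0.31 and 0.40 and not called.

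Nr1h3, which encodes LXR alpha, was low in CA1, at 1.61 to 7.50 CPM in Ctr libraries. It read 6.98, 6.96 and 9.60 CPM at SE 72 h against 2.62, 7.50 and 2.25 CPM in Ctr 72 h (Log2FC 1.15, adjusted p = 0.0161), so the groups overlapped through Ctr 72 h replicate 2, and the call was lost without Ctr 72 h replicates 1 or 3, SE 72 h replicate 3 or the RUVr factor of the fit. At 36 h they did not overlap (5.41, 5.6 and 5.58 against 3.52, 2.87 and 3.04 CPM, Log2FC 0.82, adjusted p = 0.0586). Nr1h2, the LXR beta gene, and Abcg1, an exporter to lipoprotein particles, were called in no comparison, with Log2FC of 0.17 to 0.36 and -0.18 to 0.36. The summed microglial markers and the summed astrocyte markers, the latter with much of the sum in Gfap, were at their highest at SE 72 h. Abca1, Nr1h3 and Srebf1 were highest then too, and the part of these cells in their values was not tested.

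**Figure D4:**
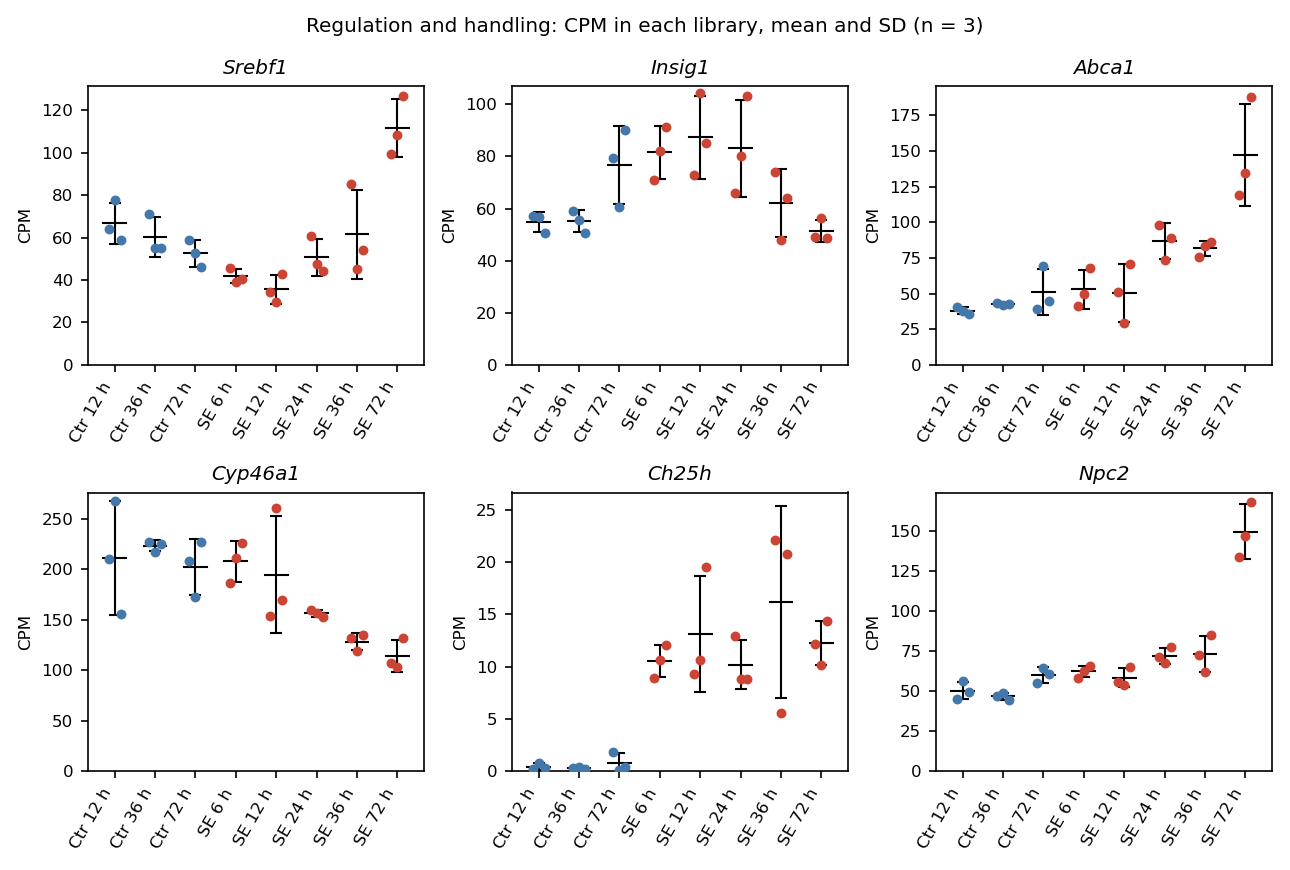
CPM (vertical axes, from 0) of 6 genes of sterol regulation and handling in each library by group, Ctr in blue and SE in red; points are libraries, bars the mean and SD of 3. Srebf1 dips at SE 12 h and peaks at SE 72 h, Abca1 and Npc2 climb to SE 72 h, Cyp46a1 declines to 103 to 132 CPM, and Ch25h is near 0 in all Ctr groups.

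Ch25h, the cholesterol 25-hydroxylase of activated myeloid cells, had the largest Log2FC of the set at every time. The 9 Ctr libraries held 0.171 to 1.86 CPM, the lowest of them a single count. The SE libraries held 8.95, 10.7 and 12.1 CPM at 6 h, 9.29, 10.6 and 19.5 CPM at 12 h, 13, 8.84 and 8.83 CPM at 24 h, 22.2, 5.6 and 20.8 CPM at 36 h and 12.2, 10.2 and 14.4 CPM at 72 h, all above every Ctr library. The Log2FC was 4.40, 4.83, 4.34, 5.63 and 3.86 in that order (adjusted p from 1.79e-08 to 4.24e-05), its size resting on few control counts. It was the only one of the 35 called higher at 12, 36 and 72 h alike, as 4.65% of all genes were. At 6 h, when Ch25h was already high, the summed microglial markers were at 307 to 363 CPM, below the Ctr libraries; 5 of the 10 markers were called lower there, P2ry12 and Tmem119 the most (-3.55 and -2.74), and the other 5 had Log2FC above 0, up to 0.57, with no call. An RNA gene on the other strand, Gm26902, holds 49.2% of the 31-base words of the Ch25h transcript. Without strand, reads there cannot be told apart, and they may be missing from the Ch25h count.

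Cyp46a1, the neuronal 24-hydroxylase by which the brain clears cholesterol, was by length the most abundant of the 35 in Ctr libraries, with a median of 52.6 CPM per kb. At 6 h it was not called (186 to 226 CPM against 156 to 267 CPM, Log2FC -0.03). At 36 h it read 131, 119 and 135 CPM against 227, 217 and 225 CPM, and at 72 h 107, 103 and 132 CPM against 208, 172 and 227 CPM. The groups did not overlap at either time, and the Log2FC was -0.80 and -0.83 (adjusted p = 0.00124 and 0.00123). The 36 h call held in every alternative; without the 6 libraries with ganglion markers, with 1 SE and 2 Ctr libraries left, the 72 h value was -0.72 with an adjusted p of 0.0748. The 8 neuronal markers had a median Log2FC of -0.33 at 36 h and -0.40 at 72 h, with 2 called lower at each, and their part in the Cyp46a1 values was not tested.

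Soat1, which esterifies cholesterol for storage, was called at 24 h (69.4, 70.4 and 110 CPM against 42.6 to 51.5 CPM in all Ctr libraries, Log2FC 0.84, adjusted p = 0.000198) and at 72 h (71.8, 76.7 and 99.5 CPM against 44.3, 48.4 and 50.2 CPM, Log2FC 0.80, adjusted p = 0.00555). At 12 and 36 h its SE libraries also lay above their controls, at Log2FC of 0.59 and 0.57. The 24 h call was lost without SE 24 h replicate 3 and the 72 h call without SE 72 h replicate 3, and both were lost with the label number range as a factor (0.51 and 0.48).

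Npc2, the lysosomal protein that hands cholesterol to NPC1, read 134, 146 and 168 CPM at SE 72 h against 55.0, 64.6 and 60.4 CPM in Ctr 72 h, with no overlap. The Log2FC was 1.32 (standard error 0.12, adjusted p = 1.51e-07) and held in every alternative. Npc2 was the only one of the 35 called between SE 36 h and SE 72 h (Log2FC 1.03, adjusted p = 3.12e-05), a call lost when either SE 36 h replicate 2 or SE 72 h replicate 3 was left out. Of all genes tested 4.13% were called there, 3.08% higher and 1.05% lower. Npc1, the membrane protein that takes cholesterol out of the lysosome, had a smaller Log2FC of 0.57 at 72 h (72.3, 90.0 and 104 CPM against 66.8, 49.1 and 63.0 CPM, adjusted p = 0.00141), without overlap and without a call. Stard4, a soluble sterol carrier, was called at 36 h (28.5, 24.5 and 36.6 CPM against 18.8, 18.7 and 17.7 CPM, Log2FC 0.69, adjusted p = 0.023) but not when SE 36 h replicate 3 or any Ctr 36 h library was left out. That call was also lost without the RUVr factor of the fit and without the 6 libraries with ganglion markers.

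The effect of SE on 15 of the 35 genes differed between 12 and 72 h by the test of the difference itself, where 18.6% of all genes were called. For 11 genes the effect was lower at 72 h: Hmgcs1, Pmvk, Idi1, Sqle, Cyp51, Msmo1, Hsd17b7, Sc5d, Dhcr7, Insig1 and Cyp46a1. Of all genes 6.31% were lower in this comparison. For 4 it was higher, Srebf1, Abca1, Npc1 and Npc2, beside 12.3% of all genes. Among the 20 synthesis enzymes 9 were lower and none higher, with a median difference of -0.64 against 0.15 over all genes. The most negative differences among the 15 were those of Idi1 (-1.97, standard error 0.51), Cyp51 (-1.39, standard error 0.35) and Pmvk (-1.27, standard error 0.28). Because the level of these genes was high in Ctr 72 h, part of the size depends on that group. The 12 h and 72 h groups may also differ in time of day, whose part was not tested. With Ctr 12 h and Ctr 36 h in its place, 4 enzymes were still called lower, with the label number range as a factor 4 were, and without the 6 libraries with ganglion markers, which leaves 1 SE 72 h and 2 SE 12 h libraries, 5 were.

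**Figure D5:**
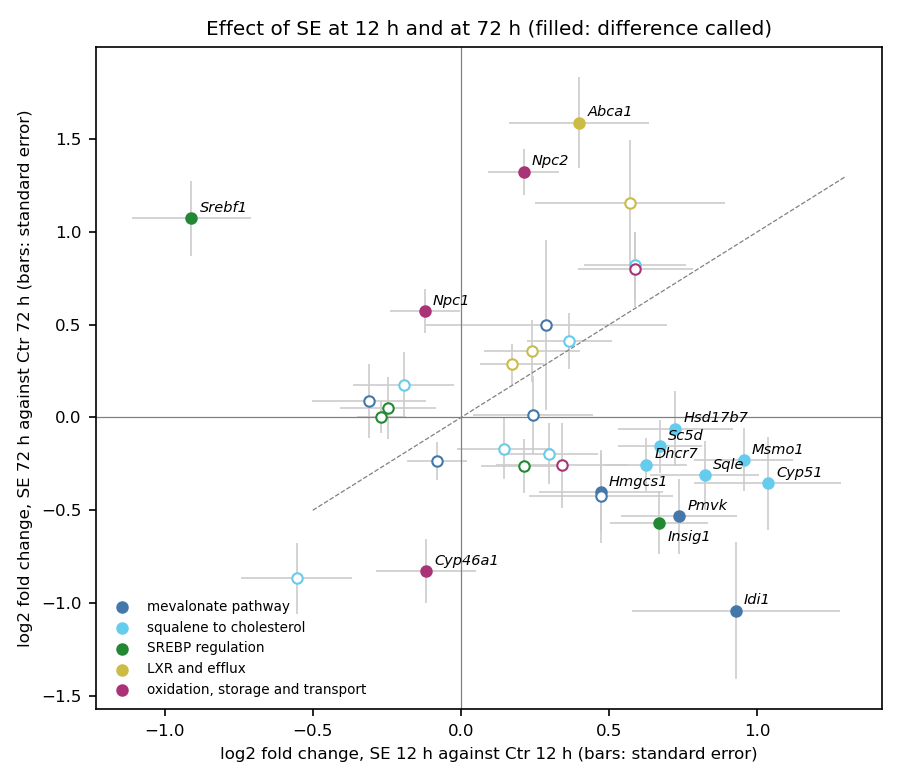
Log2FC of SE against Ctr at 12 h (horizontal axis) and at 72 h (vertical axis) for 34 of the 35 genes, coloured by role, with bars of 1 standard error and filled points for a called difference between the effects; the dashed line marks equal effects. Ch25h, at 4.83 and 3.86, is off the scale and left out. The 9 synthesis enzymes with filled points lie to the lower right, Srebf1 to the upper left, and Abca1, Npc1 and Npc2 above the line.

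Between 12 and 36 h no gene of the 35 was called for a difference of effect (3.38% of all genes, 2% higher and 1.38% lower); 9 had an unadjusted p below 0.05 in edgeR, and 1 was called by DESeq2 and 0 by limma-voom. Between 36 and 72 h Srebf1 (1.05) and Npc2 (0.67) were higher and Sqle (-1.001) lower at 72 h, beside 4.81% of all genes (3.69% higher, 1.12% lower). No gene was called between SE 12 h and SE 24 h (3.18% of all genes, 1.47% higher and 1.72% lower) or between SE 24 h and SE 36 h (0.529%, 0.347% and 0.182%) in edgeR, with 10 and 3 at an unadjusted p below 0.05, 0 and 0 called by DESeq2 and 1 and 0 by limma-voom. In the controls alone, none was called between Ctr 12 h and Ctr 36 h, as for all genes (0%), and none between Ctr 12 h and Ctr 72 h (0.931%, 0.325% and 0.606%) in edgeR. There 0 and 13 had an unadjusted p below 0.05, DESeq2 called 0 and 1, and limma-voom 0 and 0. Tm7sf2 (0.90) and Stard4 (0.84) were higher in Ctr 72 h than in Ctr 36 h, beside 1.96% of all genes (0.705% higher, 1.26% lower), and neither was called without Ctr 72 h replicate 2 or without any one of the Ctr 36 h libraries.

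Neighbouring pathways were read for reference from lists that hold none of the 35. The 13 genes that process or degrade SREBP and its partners had median Log2FC of -0.02 to 0.03 in the 5 comparisons with Ctr. Of these, 1 was called lower, Rnf145, a ubiquitin ligase of SCAP (-0.78 at 36 h, adjusted p = 2.51e-05), and 1 higher, Mbtps2, the protease that frees SREBP (0.69 at 72 h, adjusted p = 0.0206). The summed level of the 15 fatty acid genes did not show the early rise of the sterol enzymes. It was 3184 to 3722 CPM at SE 6 h and 2720 to 2873 CPM at SE 12 h, against 2991 to 3883 CPM in all Ctr libraries. At 12 h 1 was called higher and 4 lower (13.9% and 11.4% of all genes). At 24 h none were called higher and 5 lower (14.9% and 9.21%), and at 36 h none and 3 (12.7% and 8.91%). Fads2, the first desaturase of polyunsaturated fatty acids, had Log2FC of -0.86, -1.69 and -1.21 at 12, 24 and 36 h (adjusted p = 0.00151, 1.98e-07 and 7.63e-05), and Fads1, the next desaturase, of -1.03 and -0.85 at 24 and 36 h (adjusted p = 8.83e-08 and 1.22e-05). Acacb, a mitochondrial acetyl-CoA carboxylase, was at -0.70 at 12 h and -1.77 at 24 h (adjusted p = 0.0360 and 7.66e-06). Elovl5, an elongase, was the exception, at 1.18 at 6 h and 0.87 at 12 h (adjusted p = 4.85e-07 and 0.000318).

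Of 22 lipoprotein receptors, sterol carriers and LXR targets, 6 were called higher and none lower at 72 h (15.2% and 4.2% of all genes). Apod, a lipid-binding apolipoprotein, had Log2FC of 2.56, 2.50 and 2.66 at 24, 36 and 72 h (adjusted p = 1.70e-08, 4.77e-06 and 3.28e-06). Pltp, the phospholipid transfer protein, was at -1.36, -1.45 and -1.68 at 12, 24 and 36 h (adjusted p = 7.46e-05, 5.51e-06 and 8.25e-06) and at -0.13 at 72 h without a call. Abcg4, a neuronal exporter, was called lower at 24 h (-0.83) and 36 h (-0.96), and Gramd1b, which carries plasma membrane cholesterol inward, higher at 6 h (0.97) and 12 h (1.09). Of 4 further enzymes of oxysterols and bile acids, Cyp7b1, which clears 25-hydroxycholesterol, was called lower at 12 h (-0.76) and 24 h (-1.02) and higher at 72 h (0.82). Cyp39a1, which acts on 24-hydroxycholesterol, was higher at 36 h (1.67) and 72 h (1.87), and Cyp11a1, the side-chain cleavage enzyme, lower at 12 and 36 h (adjusted p = 0.0309 and 0.0428). The 11 genes that use isoprenoids had medians of -0.08 to 0.17, with Pdss2 called lower at 6 and 12 h and Rabggtb higher at 24 h.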

How the data were processed

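Paired-end reads of polyadenylated RNA (TruSeq RNA v2, HiSeq1500) were trimmed by the authors with Trim Galore 0.6.6, aligned with STAR 2.7.8a to GRCm39 and counted without strand with htseq-count 0.13.5 on GENCODE M26. The deposited values are raw counts per gene, and no normalization had been applied. Symbols and positions were taken from GENCODE M39, a later release, which matched 18552 of 18647 identifiers.

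All 24 libraries entered one fit with edgeR 4.0.16 (R 4.3.3): genes passing filterByExpr, TMM scaling, group terms and, from the deviance residuals, 1 RUVr factor for unwanted variation. That factor was -0.378, 0.802 and -0.368 in Ctr 72 h replicates 1, 2 and 3 and at most 0.140 in size in any other library. It thus takes up part of the spread within Ctr 72 h, which the tests with that group do not measure in full. The quasi-likelihood test was adjusted by Benjamini-Hochberg over 18153 genes. Calls needed an adjusted p of at most 0.05 and a log2 fold change of at least 0.66, or 1 between consecutive SE times. Differences between effects at 2 times were tested as contrasts. CPM are TMM-scaled, and levels were divided by summed exon length only where genes were compared. The fit was run on simulated counts with known changes at SE 12 h against Ctr 12 h only and no unwanted variation drawn in. That run does not bear on the other comparisons.

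The named genes were the 35 members, each accounted for, and in each reference list at most the 4 called genes with the smallest adjusted p over the 5 comparisons with Ctr. The members and lists were chosen with earlier results of these data known. Alternatives covered DESeq2 1.42.0, limma 3.58.1 (voom), other scalings and filters, no RUVr factor, ranges of the label numbers as a factor, a replicate block and leaving out libraries. Leaving out the 6 libraries with ganglion markers, and the mean of Ctr 12 h and Ctr 36 h in place of Ctr 72 h, were added after the data were seen. Depth ranged from 2663936 to 30133731 counts, so low genes (Ch25h, Fdps, Nr1h3) are the least precise. Some genes are not reported here.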

Additional observations from a re-analysis of the deposited data

Results flagged for a closer look

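The effect of SE differed between times for the genes below, by edgeR's quasi-likelihood test of the difference between log2 fold changes, with Benjamini-Hochberg adjustment over all genes. Values are the effect at 72 h minus the effect at 12 h unless stated, with n = 3 libraries in each of the 4 groups.

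Of the synthesis enzymes, Hmgcs1 differed by -0.87, Pmvk by -1.27, Idi1 by -1.97, Sqle by -1.13, Cyp51 by -1.39 and Msmo1 by -1.18. Hsd17b7 differed by -0.78, Sc5d by -0.83 and Dhcr7 by -0.88. These 9 genes had a fitted effect above 0 at 12 h and below 0 at 72 h. The Ctr 72 h level bears on their size: with Ctr 12 h and Ctr 36 h in its place the difference was -0.39 for Hmgcs1, -0.59 for Pmvk, -0.53 for Sqle, -0.65 for Msmo1 and -0.44 for Hsd17b7, all without a call, and -1.14 for Idi1 with one. Hmgcs1 and Hsd17b7 also lost the call without Ctr 72 h replicate 2 and without any of several other libraries.

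Of the other genes, Srebf1 differed by 1.98, Insig1 by -1.24, Abca1 by 1.19, Cyp46a1 by -0.71, Npc1 by 0.70 and Npc2 by 1.11. The differences of Srebf1, Insig1, Npc2 and Cyp51 were called in every alternative and with each library left out. That of Abca1 was lost under 1 of 11 alternatives and without Ctr 72 h replicate 1, that of Cyp46a1 under 4 of 11 alternatives and 7 of 12 left-out libraries, and that of Npc1 under 4 of 11 and 4 of 12.

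Between 36 and 72 h, Sqle differed by -1.001, Srebf1 by 1.05 and Npc2 by 0.67. These 3 calls were less stable: each was lost under 5 or 6 of 11 alternatives. The cause of these differences was not tested.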

How the results depend on the processing

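Of 63 calls among the 35 genes, 26 were kept under every alternative and with every library left out. Of 1273 values recomputed for them, 1093 kept direction and call, 180 kept direction only and 0 reversed. The number of genes called, main value first, moved by more than 1.5 times as follows, and the cause was not tested. With label number ranges as a factor it went from 10 to 6 at 12 h, from 15 to 9 for the 72 minus 12 h effect, from 3 to 0 for the 72 minus 36 h effect and from 2 to 0 for Ctr 72 h against Ctr 36 h. With library size only it was 10 in place of 5 at 36 h and 4 for Ctr 72 h against Ctr 36 h. Without the 6 libraries with ganglion markers, which leaves 1 library in SE 72 h, it was 3 at 36 h, 0 for SE 12 h against SE 6 h, 1 for SE 24 h against SE 12 h, 2 for SE 72 h against SE 36 h, 1 for the 36 minus 12 h effect, 1 for the 72 minus 36 h effect and 0 for Ctr 72 h against Ctr 36 h. With DESeq2 it was 1 for the 36 minus 12 h effect, 5 for the 72 minus 36 h effect, 1 for Ctr 72 h against Ctr 12 h and 4 for Ctr 72 h against Ctr 36 h. With limma-voom it was 1 for SE 24 h against SE 12 h, 1 for the 72 minus 36 h effect and 0 for Ctr 72 h against Ctr 36 h. Without the RUVr factor it was 1 and 0 for those last 2, without the filter 1 for the last, and with only the groups compared 0 for SE 72 h against SE 36 h, 5 for the 72 minus 36 h effect and 5 for Ctr 72 h against Ctr 36 h.

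When each library was dropped in turn, 7 to 13 genes were called at 12 h, 3 to 7 at 36 h (3 without SE 36 h replicate 3), 8 to 11 at 72 h, 8 to 11 at 6 h, 5 to 7 at 24 h, 0 to 1 for SE 12 h against SE 6 h, 0 to 1 for SE 24 h against SE 12 h, 0 to 2 for SE 72 h against SE 36 h, 0 to 2 for the 36 minus 12 h effect, 0 to 3 for the 72 minus 36 h effect, 11 to 15 for the 72 minus 12 h effect, 0 to 3 for Ctr 72 h against Ctr 12 h and 0 to 4 for Ctr 72 h against Ctr 36 h. The counts under 5 moved without SE 12 h replicates 1 or 3, SE 36 h replicates 1, 2 or 3, SE 72 h replicates 2 or 3, Ctr 12 h replicate 2, any Ctr 36 h library or any Ctr 72 h library. Libraries of the same number did not deviate together (correlations from -0.20 to 0.18), so the labels' numbers were not taken as pairs. With the replicate block, the calls numbered 9, 10, 6, 5 and 10 at the 5 times in order and 15 for the 72 minus 12 h effect.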
